A study of Homo sapiens with 22 samples.

Results

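RNA polymerase II (Pol II) occupied 2761 sites inside protein-coding genes of THP-1 cells in both conditions studied, away from gene ends and with no trimethylated histone H3 lysine 4 (H3K4me3) beside them. They were 8.27% of the 33370 Pol II peaks that the authors deposited for control cells on chromosomes 1 to 22, X and Y. A site was a control peak narrower than 8000 bp that overlapped a knockdown Pol II peak by at least 1 bp, had no H3K4me3 peak of either condition within 1 kb, and lay wholly inside a RefSeq protein-coding gene, more than 2 kb from both ends of every gene containing it. The width limit left 32663 peaks, the overlap left 20409, the absence of H3K4me3 left 6085, the position inside a protein-coding gene left 3368, and the distance from gene ends left the 2761 sites. Presence in both lists, width, H3K4me3 and gene position therefore chose the sites and are described without a test.

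THP-1 is a human monocytic leukaemia line. All cells of the series had received a lentivirus, which carried a short hairpin against QKI5 in the knockdown cells (sh-QKI5) and a control hairpin in the control cells (sh-control). QKI5 is a nuclear isoform of the RNA-binding protein Quaking. Pol II and H3K4me3 were mapped by chromatin immunoprecipitation (ChIP), and RNA bound by QKI5 by crosslinking immunoprecipitation (CLIP), with 2 replicates of each per condition. Each deposited list pools both replicates, so no spread between replicates could be measured, depth is unknown and no comparison of the conditions has a replicate check. The ChIP lists give a position and the same score for every peak, so width is the only quantity they hold, and no peak has a height. The degree of knockdown cannot be read from these peak lists, and QKI itself held no site.

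Pol II transcribes all protein-coding genes and most often gives its strongest ChIP signal at the promoter, where it pauses, and again past the 3′ end, where it slows before release. H3K4me3 marks the first nucleosomes of active promoters. Pol II inside a gene without that mark can belong to elongating polymerase, to a pause within the gene, to an intragenic enhancer or to a start site that carries little H3K4me3. The peak lists do not tell these apart.

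Some sites coincided with annotated start sites although no H3K4me3 peak lay within 1 kb. Of the 35116 RefSeq promoter windows in the table used here (250 bases before to 50 after the annotated start, GRCh38.p14), 25 touched a site. A few of the windows that lay wholly inside a site are printed because they name the start that the control Pol II peak covered, 5′ to 3′ on the gene's strand. Every site lay more than 2 kb from the ends of the genes containing it. The ARHGDIB, ATF3, KCNAB2 and BACE1 starts are therefore internal to those genes and not their outer 5′ ends. The ATF3 and KCNAB2 sites lay 49.3 and 50.6 kb from the outer 5′ end. KCNAB2 also had a control H3K4me3 peak of 5013 bp at a gene end. Capitals mark the letters of a searched motif: TATAAA in ATF3, GGGCGG in BACE1 and TGACTCA, read on the other strand as TGAGTCA, in RUNX1-AS1. The ARHGDIB window, chr12:14948847-14949146 on the minus strand, belongs to a GDP-dissociation inhibitor gene expressed in blood cells. The ATF3 window, chr1:212614768-212615067 on the plus strand, belongs to a stress-induced transcription factor. The KCNAB2 window, chr1:6045638-6045937 on the plus strand, belongs to a potassium channel beta subunit. The BACE1 window, chr11:117295524-117295823 on the minus strand, belongs to a beta-secretase. The RUNX1-AS1 window, chr21:34836063-34836362 on the plus strand, starts a transcript antisense to RUNX1 and lay within a Pol II site of RUNX1.
ARHGDIB: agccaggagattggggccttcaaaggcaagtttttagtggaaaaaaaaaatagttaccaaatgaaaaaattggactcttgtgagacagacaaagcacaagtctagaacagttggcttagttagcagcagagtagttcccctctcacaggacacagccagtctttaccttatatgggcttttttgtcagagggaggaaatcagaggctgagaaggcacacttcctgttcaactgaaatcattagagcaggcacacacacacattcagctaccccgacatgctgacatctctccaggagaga
ATF3: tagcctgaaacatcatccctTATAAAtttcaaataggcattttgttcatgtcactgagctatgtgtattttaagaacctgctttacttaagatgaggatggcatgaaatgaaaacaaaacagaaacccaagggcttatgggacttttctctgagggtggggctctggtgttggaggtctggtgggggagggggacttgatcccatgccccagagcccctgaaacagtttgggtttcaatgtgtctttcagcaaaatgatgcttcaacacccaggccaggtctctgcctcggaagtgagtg
KCNAB2: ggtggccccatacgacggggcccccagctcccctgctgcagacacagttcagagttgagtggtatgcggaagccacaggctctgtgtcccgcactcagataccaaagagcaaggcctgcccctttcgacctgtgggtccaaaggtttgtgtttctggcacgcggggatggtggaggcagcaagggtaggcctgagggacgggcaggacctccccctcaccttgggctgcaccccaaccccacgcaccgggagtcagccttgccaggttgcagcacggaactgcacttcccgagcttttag
BACE1: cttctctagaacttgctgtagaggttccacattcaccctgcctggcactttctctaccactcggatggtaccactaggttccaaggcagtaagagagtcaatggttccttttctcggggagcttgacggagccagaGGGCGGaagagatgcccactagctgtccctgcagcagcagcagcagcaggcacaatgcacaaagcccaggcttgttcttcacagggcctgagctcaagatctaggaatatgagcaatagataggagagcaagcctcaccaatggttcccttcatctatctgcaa
RUNX1-AS1: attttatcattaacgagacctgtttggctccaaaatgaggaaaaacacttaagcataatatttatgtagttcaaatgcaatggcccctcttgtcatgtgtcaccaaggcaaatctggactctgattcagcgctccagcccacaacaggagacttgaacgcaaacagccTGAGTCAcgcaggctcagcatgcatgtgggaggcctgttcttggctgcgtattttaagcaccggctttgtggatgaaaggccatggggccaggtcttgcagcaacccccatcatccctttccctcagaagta

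At ARHGDIB the site measured 922 bp in control and 1973 bp in knockdown, with the nearest H3K4me3 peak 6127 bp away. At ATF3 it measured 628 bp and 769 bp, 3147 bp from H3K4me3. At BACE1 it measured 763 bp and 626 bp, 16025 bp from H3K4me3. The ARHGDIB and BACE1 windows lay inside the knockdown peak too, whereas no knockdown peak touched the ATF3 window, because the matched peaks overlapped beside it. The KCNAB2 site measured 2797 bp and 4354 bp, and the RUNX1 site over the antisense start 7425 bp and 6480 bp. A knockdown peak covered the RUNX1-AS1 window and none touched that of KCNAB2. Of the 25 windows, 17 lay wholly inside a control site and 14 wholly inside a knockdown peak, and 20 were touched by a knockdown peak.

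The CpG content of the 25 windows lay in the range of unmarked promoters. They held a median of 6 CpG, with quartiles of 3 and 9, beside 4 (2 to 8) in the 17119 windows not under an H3K4me3 peak and 27 (18 to 35) in the 17997 under one. The rule chose the sites for lacking the mark, so the distance from marked promoters is a description only. Their median GC content was 56%, beside 48.3% and 66%. GGGCGG, the GC box, was found on either strand in 6 of the 25 (24%) and in 44.95% of all windows. TGACTCA, the AP-1 motif, was found in 6 of the 25 (24%) and in 4.95% of all windows. TATAAA was found in 4 of the 25 (16%) and in 11.5% of all windows, and GAGGAAGT, an ETS motif bound by PU.1, in 2 (8%) and 2.59%. TGACGTCA, the cyclic AMP response element, was in none of the 25 and 1.85% of all windows, and CCGGAAG, another ETS motif, in none and 10.3%. GAGGAAGT and CCGGAAG share the letters GGAAG, and TGACTCA and TGACGTCA share their outer letters. Each was counted on its own, on both strands, and a match describes letters only. The windows were few, and the motifs were not tested.

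The sites also covered 7 microRNA hairpins of the 1560 in the RefSeq table, of which 241 lay on any control Pol II peak. All 7 lay wholly inside their control site, and knockdown Pol II peaks touched 5, all but MIR6501 and MIR3186. MIR499A and MIR499B, transcribed from opposite strands in MYH7B, a myosin heavy chain gene, shared 1 site, 7727 bp wide in control and 8405 bp wide in knockdown. MIR6501 lay in a site of SON, a splicing cofactor gene, of 7119 bp and 2859 bp, and MIR4804 in a site of TNPO1, a nuclear import receptor gene, of 7687 bp and 1176 bp. MIR378H in FAXDC2, MIR3186 in BAHCC1 and MIR6802 in PPP6R1 lay in sites of 501 bp, 804 bp and 1256 bp in control and 501 bp, 2941 bp and 2487 bp in knockdown. The mature sequences of the hairpins in the 3 wide sites are printed to show which microRNAs the control Pol II peaks covered. Capitals mark the seed, bases 2 to 8. The first pair shares the seed ACAUCAC, and the others each have a seed of their own.
hsa-miR-499a-3p: aACAUCACagcaagucugugcu
hsa-miR-499b-3p: aACAUCACugcaagucuuaaca
hsa-miR-499a-5p: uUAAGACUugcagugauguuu
hsa-miR-499b-5p: aCAGACUUgcugugauguuca
hsa-miR-6501-5p: aGUUGCCAgggcugccuuuggu
hsa-miR-6501-3p: cCAGAGCAgccugcgguaacagu
hsa-miR-4804-5p: uUGGACGGuaagguuaagcaa
hsa-miR-4804-3p: uGCUUAACcuugcccucgaaa

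The peaks on either side of each limit of the rule were close in value. The widest site, in KANSL1L, measured 7794 bp, and the narrowest peak that failed on width alone, in RRM2, measured 8038 bp. The site nearest to H3K4me3, in B9D2, was 1002 bp from it, and the peak in CCNF that just failed was 999 bp from it. The site nearest to a gene end, shared by ZNF146 and ZNF565, was 2003 bp from it, and the peak in ZNF24 that just failed was 1993 bp from it. The limits therefore fall within a continuous range of peaks.

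The sites were narrow. Their median width was 812 bp in control (quartiles 501 and 1474 bp), and that of the matched knockdown peaks was 973 bp (626 and 2178 bp). In all 20409 shared control peaks narrower than 8000 bp the medians were 1501 and 1816 bp. The narrowest value in either Pol II list is 501 bp, and 787 sites (28.5%) had it in control, 682 (24.7%) in knockdown and 262 in both. Together the sites covered 3.50 Mb of the 56.6 Mb in the control list.

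Width in knockdown was at least 2-fold that in control at 710 sites (25.7%), beside 16.5% of all shared peaks under the width limit. It was at least 2-fold less than that in control at 337 sites (12.2%), beside 5.32%. Widths in the 2 lists belong to the contrast that chose the sites, and nothing is read from these shares. The median ratio of knockdown to control width was 1.12 at the sites and 1.11 in all shared peaks. When the same rule was applied starting from the knockdown list, it found 2765 sites with a median ratio of 0.944, of which 328 were at least 2-fold wider and 747 at least 2-fold narrower in knockdown. At the 1936 sites where 1 control peak met 1 knockdown peak and both met the rule, the median widths were equal at 764 bp, the ratio was 1.00, and 227 sites were wider and 249 narrower by that limit. The ratio also moved with control width, from 1.48 at the sites of minimum width to 0.685 at the 112 sites wider than 4000 bp. The widths therefore showed no direction of change that did not depend on the list the sites were chosen from.

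**Figure D1:**
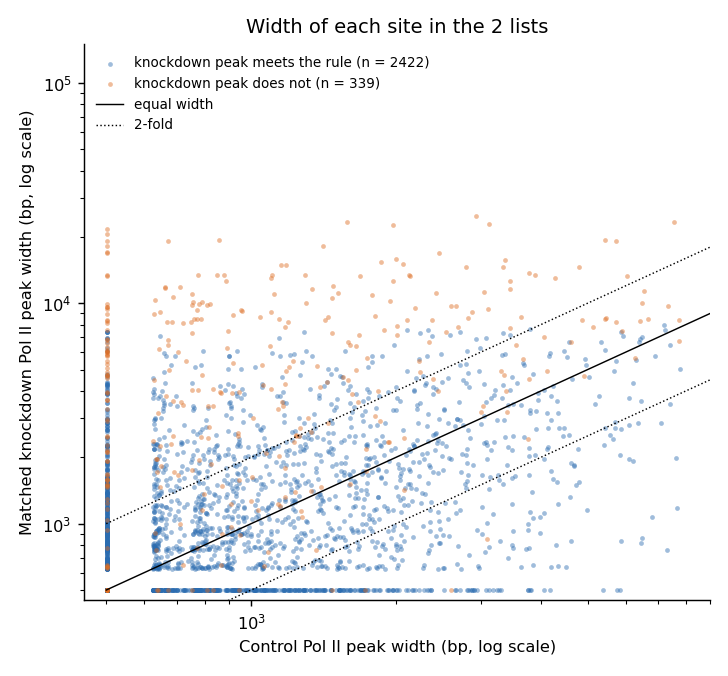
Control (x axis) and matched knockdown (y axis) Pol II peak widths in bp, both on log scales, with 1 point per site; the solid line marks equal width and the dotted lines a 2-fold difference. The 2422 sites whose knockdown peak met the rule lie on both sides of the solid line, and most of the 339 whose knockdown peak did not meet it lie above it.

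The plot of widths shows how the match between the lists varied. The 2761 sites met 2571 distinct knockdown peaks. At 2422 sites (87.7%) the knockdown peak also met the rule. At the other 339 it came within 1 kb of H3K4me3 in 166 cases, was 8000 bp or wider in 114, and reached within 2 kb of a gene end or beyond the gene in 227, with some peaks failing in several ways. A knockdown peak was shared with another site at 365 sites, and 175 sites held 2 or more knockdown peaks. The centres of the matched peaks lay a median of 406 bp apart, and at 1001 sites (36.3%) the overlap covered at least 50% of both peaks. A shared site thus means Pol II peaks that touch, and at most sites not the same interval.

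The extremes of the ratio show this directly. A site in MED29, a Mediator subunit gene, measured 501 bp in control and lay under a knockdown peak of 21646 bp. Sites of 501 bp in ST3GAL3, a sialyltransferase gene, and in PIGB, ATG16L2 and ZNF516 met knockdown peaks of 20509, 19086, 18134 and 17076 bp. The PIGB site overlapped only the edge of its knockdown peak, and the others lay wholly under theirs. All 5 knockdown peaks were wider than the limit. At the other end, a site in ZNF721, a zinc finger gene, measured 5852 bp in control and met a knockdown peak of 501 bp, and a site in ZFR, a zinc finger RNA-binding protein gene, measured 5768 bp and met one of 501 bp. Sites in TNRC18, RUNX1 and ELF1 measured 5373, 7304 and 4185 bp in control and met knockdown peaks of 501, 756 and 501 bp. The TNRC18 and RUNX1 sites each held 2 knockdown peaks, of which the one with the longest overlap was taken.

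The widest sites were spread over genes of unlike function. After KANSL1L, whose site measured 5019 bp in knockdown, came NEXN, an actin-binding protein gene, with 7751 and 6755 bp, then the MYH7B and TNPO1 sites given above. EIF4G1, a translation initiation scaffold gene, had a site of 7632 bp in control that met 4 knockdown peaks, the matched one 1994 bp wide. The ZNF124 site measured 7570 bp and lay under a knockdown peak of 23332 bp. The LRRC8C site, in a volume-regulated anion channel gene, measured 7419 and 3480 bp, and the RSRC2 site 7356 and 9742 bp. RUNX1 alone held 2 of the 10 widest sites, of 7425 and 7304 bp.

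Sites lay more often in the 3′ part of their genes. This is a description, since the rule left out peaks near H3K4me3, and such shared peaks lay mostly nearer the 5′ end. The strand was known for the hosts of 2180 sites, of which 467 lay in the 5′ part when the gene was divided into 3 equal parts (21.4%), 780 in the middle part (35.8%) and 933 in the 3′ part (42.8%). The site centre was nearer to the 5′ than to the 3′ end at 37.4% of these sites (exact 95% interval 35.4 to 39.5%). Peaks that met the same position and H3K4me3 limits but were absent from the knockdown list, called control-only peaks here, did so at 41.0% (39.6 to 42.4%), a difference of -3.61 percentage points (Newcombe interval -6.06 to -1.13). Shared gene-body peaks with H3K4me3 within 1 kb did so at 67.4%. That class was chosen for the mark that the sites were chosen to lack, so its values here are a description. Sites lay within 10 kb of the 3′ end at 40.0%, against 33.6% and 17.9% in those classes, and the difference from control-only peaks was 6.34 points (3.898 to 8.802). Intervals cover counting error only, and neighbouring peaks of a gene are not independent, so the intervals are too narrow.

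**Figure D2:**
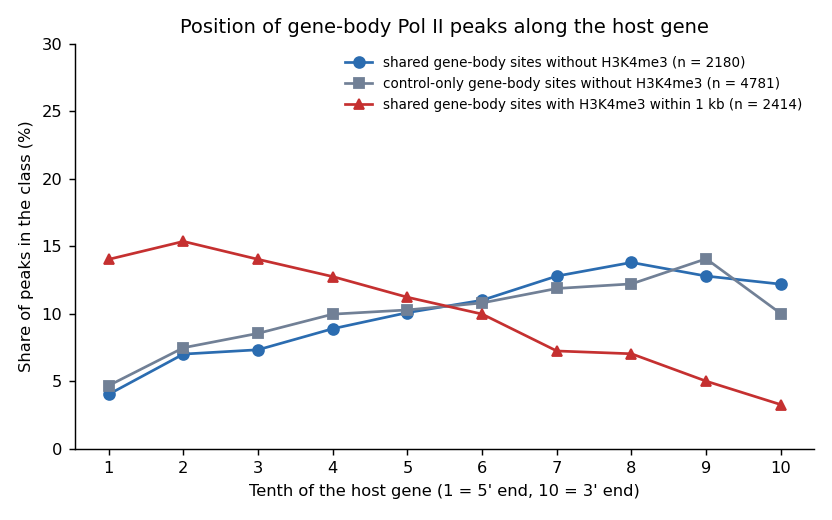
Share of peaks (y axis, %) in each of 10 equal parts of the host gene, numbered from the 5′ end (1) to the 3′ end (10), for hosts whose strand is known; each line is a class of control Pol II peaks inside genes. The sites (circles) and the control-only peaks (squares) are least frequent in the part next to the 5′ end, and shared peaks with H3K4me3 (triangles) are most frequent near the 5′ end.

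The sites tended to lie near each other. Joining neighbours at the gap conventionally used to stitch enhancers, which lies between the alternatives of 5 and 25 kb, put 1410 sites (51.1%, 49.2 to 53.0%) into 509 clusters, 42 of them with 5 or more sites, and left 1351 single. Control-only peaks were in clusters at 58.0%, a difference of -6.88 points (-9.12 to -4.64). Shared peaks with H3K4me3 were at 28.7% and shared intergenic peaks without it at 34.4%, differences of 22.3 points (19.8 to 24.8) and 16.6 points (13.7 to 19.5). Shared peaks with H3K4me3 and intergenic peaks are set apart by the mark and the position that the rule used, so their values are a description. Being in a cluster depends on neighbouring peaks, so intervals that treat peaks as independent are too narrow. The classes differ in size, with 2761 sites, 6102 control-only peaks, 2924 shared peaks with H3K4me3 and 1669 intergenic peaks. The part of class size in these shares was not tested.

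Few genes held many sites. The 2761 sites lay in 1746 protein-coding genes, 10.2% of the 17104 long enough to hold one. One site was held by 1190 genes, 556 held 2 or more, 60 held 5 or more and 10 held 10 or more. ATP8B4, which encodes a phospholipid flippase of blood cells, had the most. LYST, the lysosomal trafficking regulator mutated in Chediak-Higashi syndrome, came next. The others were MBNL1, a splicing regulator, DOCK8, a guanine nucleotide exchange factor of immune cells, ZEB2, a zinc finger repressor, AHRR, the aryl hydrocarbon receptor repressor, ST3GAL3, RAB27A, a small GTPase of secretory vesicles, and YARS1 and IARS1, which charge tyrosine and isoleucine tRNAs.

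ATP8B4 held 28 sites from 46.1 to 316.7 kb downstream of its 5′ end, with control widths of 501 to 5873 bp (median 1422.5 bp) and matched knockdown widths of 501 to 7170 bp (median 1714 bp). Its sites formed stretches of up to 7, and the stretch of 6 from 50072462 to 50091593 on chromosome 15 was covered by control sites over 69.3% of its 19132 bp. The gene, 323.6 kb long, held 55 control and 51 knockdown Pol II peaks in all. It held H3K4me3 at its 5′ end, in a broad block near 60 to 80 kb and at a peak near 125 kb, and the sites lay outside these blocks.

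LYST held 19 sites, of which 11 formed a cluster spanning 63170 bp, with control widths in the cluster of 501 to 3818 bp (median 914 bp) and knockdown widths of 501 to 1660 bp (median 635 bp). MBNL1 held 14 sites, all downstream of the H3K4me3 and Pol II blocks of its 5′ part, the first beginning 90.6 kb and the last 189.3 kb from the 5′ end. Its widest site measured 4341 bp in control and 641 bp in knockdown. Median site widths in MBNL1 were 1534 bp (control) and 791.5 bp (knockdown), whereas those of the 11 sites in RAB27A were 626 and 2566 bp. In RAB27A, 2 knockdown peaks, of 2616 and 3939 bp, each served 2 sites and so count 2 times in that median.

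DOCK8 held 13 sites, between 20.8 and 162.7 kb from its 5′ end, with median widths in control and knockdown of 1059 and 639 bp. ZEB2 held 12 sites between 37.4 and 126.7 kb, with medians of 1712.5 and 1607 bp. AHRR held 12, with medians of 1294 and 1479 bp, and ST3GAL3 held 11, with medians of 2389 and 1719 bp. In each of these genes the widths in the 2 conditions overlapped.

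**Figure D3:**
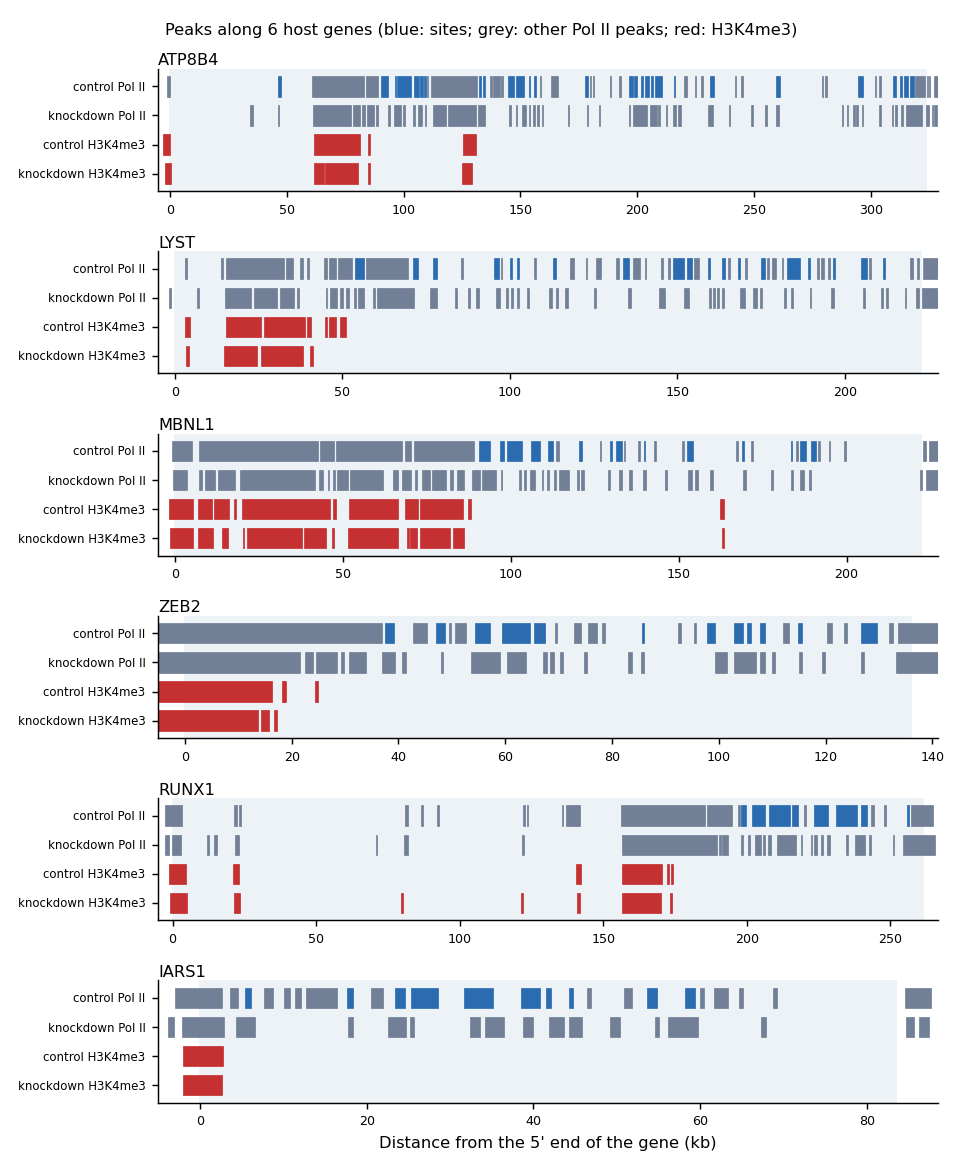
Peaks along 6 host genes as deposited for control and knockdown Pol II and H3K4me3, with distance from the 5′ end of the gene in kb on the x axis and the gene body shaded; each block is a peak drawn to scale. Sites (blue) follow the H3K4me3-covered part (red) in MBNL1, ZEB2, RUNX1 and IARS1, and other Pol II peaks (grey) are those that did not meet the rule.

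The largest clusters lay in genes of several kinds. The cluster of NHSL3 and YARS1 held 11 sites over 41690 bp, with control widths of 501 to 4627 bp. IARS1 held 10 sites over 53902 bp (501 to 3485 bp in control, 501 to 3547 bp in knockdown), and MBNL1 10 over 63728 bp. WDR1, an actin disassembly factor gene, held 8 sites over 23056 bp, 53.4% of which the control sites covered. The knockdown peaks there reached 14857 bp. The 7 RUNX1 sites that formed a cluster over 43685 bp covered 68.8% of it, the highest share among these.

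Host genes carried promoter marks more often than other genes of sufficient length. An H3K4me3 peak of either list lay within 1 kb of a gene end in 88.3% of the 1746 hosts (86.7 to 89.7%) and in 70.1% of the 15358 others (69.4 to 70.9%), a difference of 18.1 points (16.4 to 19.7). A Pol II peak was present at a gene end in both conditions at 85.2% and 58.0%, a difference of 27.3 points (25.4 to 29.0). The control Pol II peak at the gene end had a median width of 3430.5 bp in hosts and 2084.5 bp in other genes that had one. Neither mark was found at an end of 114 hosts (6.53%) and 26.9% of the others. The hosts were chosen through Pol II peaks of these same lists, and the rule also used H3K4me3. These differences are therefore a description, and their intervals cover counting error only.

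The 3′ end was occupied as well. Among hosts of known strand, 54.6% (52.0 to 57.2%) had a control Pol II peak within 1 kb of the 3′ end, against 20.5% (19.8 to 21.2%) of other genes, a difference of 34.1 points (31.4 to 36.8). Among genes with a control Pol II peak at the 5′ end the shares were 59.6% and 29.7%, a difference of 29.9 points (26.9 to 32.9). In such genes of 20 to 50 kb they were 65.9% and 29.2%, a difference of 36.7 points (31.8 to 41.3), and in those of 50 to 100 kb 58.2% and 16.6%, a difference of 41.5 points (34.8 to 48.0). Other lengths were not compared. The hosts were chosen through Pol II peaks of this same control list, also within each narrower comparison, so these differences are a description. How far the amount of Pol II on a gene sets these shares was not tested, since the lists hold no signal height.

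The share of genes with a site was lowest among short genes. It was 5.86% below 20 kb, 13.4% from 20 to 50 kb, 12.53% from 50 to 100 kb, 12.3% from 100 to 200 kb and 10.7% at 200 kb and over. Among genes with Pol II at an end in both conditions, 14.3% held a site, from 9.33% below 20 kb to 17.96% from 20 to 50 kb and 14.8% at 200 kb and over. Among the others the share was 1.13% below 20 kb and 7.21% at 200 kb and over.

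The myeloid transcription factors, which set the monocyte programme, held sites in 12 of the 28 listed genes long enough (42.9%), beside 10.2% of all such genes. Among the 24 with Pol II at an end in both conditions the count was 10 (41.7%), beside 14.3%. The 12 held 47 sites with a median width ratio of 1.33, 15 of them at least 2-fold wider and 10 at least 2-fold narrower in knockdown, beside 25.7% and 12.2% of all sites. ZEB2 held the most. RUNX1, required for blood stem cell formation, held 8 sites, in the order of increasing distance from the 5′ end 1598, 4689, 7425, 1983, 4995, 7304, 2041 and 754 bp wide in control. The matched knockdown peaks measured 677, 1850, 6480, 6480, 1148, 756, 3614 and 11053 bp. Of these, 5 were narrower than the control peak, and 1 knockdown peak served 2 sites.

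Some of these factors had sites that met much wider knockdown peaks. As 10 of the 47 sites were at least 2-fold narrower in knockdown, nothing is read from the wider ones. SPI1, which encodes PU.1, held a site of 1939 bp in control that overlapped in part a knockdown peak of 10283 bp. IRF8, a partner of PU.1, held a site of 2934 bp under one of 24799 bp, which is 8.45-fold wider. The knockdown peaks at SPI1 and IRF8 were both beyond the width limit. MYB, a factor of immature blood cells, held a site of 501 bp under a knockdown peak of 5322 bp. IRF5, an inflammatory regulator, held a site of 501 bp that overlapped only the edge of a knockdown peak of 2463 bp. The MEF2C sites differed less in width between the 2 lists. MEF2C held 5 sites of 501 to 939 bp in control, met by knockdown peaks of 656 to 1151 bp. The 3 sites of MEF2D, of 1746, 765 and 1020 bp, all overlapped 1 knockdown peak of 5144 bp.

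Among the ETS family members, FLI1 held sites of 2008 and 501 bp in control, met by 501 and 683 bp in knockdown. ETV6 held 3, of 900, 2492 and 501 bp, met by 1201, 2020 and 1253 bp. ELF1 held 5 sites, of which the widest measured 4185 bp in control but 501 bp in knockdown, and another 501 bp in control but 1464 bp in knockdown. FOXP1, a forkhead repressor, held 5 sites of 501 to 1295 bp in control and 501 to 2572 bp in knockdown. No common direction appeared among these factors.

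The AP-1 and immediate early genes, which respond within minutes to stimulation, held 3 sites in 3 of 11 genes (27.3%), beside 10.2% of all genes. Among the 10 with Pol II at an end in both conditions, 2 held a site (20%), beside 14.3%. Nothing is read from these few. FOSL2 had a site 4722 bp wide in control and 1493 bp wide in knockdown, and NR4A1, a nuclear receptor, one of 2885 and 1851 bp. ATF3 had the site over an annotated internal start. Corepressors and chromatin regulators held 16 sites in 8 of 36 genes (22.2%). KDM2B, a histone demethylase, held 5, of 933 to 2094 bp in control and 1445 to 2855 bp in knockdown, and ANKRD11 held 3 of 501 bp that met knockdown peaks of 1251, 1586 and 2674 bp. HDAC5, KDM6B, TET3 and JMJD1C held 1 site each, of 760 to 1235 bp in control apart from 501 bp in TET3, and DOT1L held 2. Of the 16 sites, 5 were at least 2-fold wider and none 2-fold narrower in knockdown, beside 25.7% and 12.2% of all sites, and nothing is read from these few.

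Signalling and cytokine receptor genes held 21 sites in 15 of 39 genes (38.5%), and in 14 of the 35 with Pol II at an end in both conditions (40%). CSF1R, the receptor that sustains macrophages, had a site 630 bp wide in control and 636 bp wide in knockdown. IFNGR2, a chain of the interferon gamma receptor, had one of 755 bp under a knockdown peak of 9771 bp. INPP5D, the lipid phosphatase SHIP, held 4 sites, of 1599, 501, 628 and 1102 bp, met by 1679, 501, 501 and 501 bp. PIK3CD, a phosphoinositide kinase of leukocytes, held 2, of which the one of 1967 bp lay under a knockdown peak of 12642 bp. IL17RA held 3, and CSF2RA, IL6R, STAT5B, LYN, SYK, PRKCD, DGKZ and PLCG2 held 1 each. The median ratio over the 21 sites was 1.05, beside 1.12 at all sites. Of the 21, 6 were at least 2-fold wider and 1 at least 2-fold narrower, beside 25.7% and 12.2% of all sites.

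Macrophage and monocyte genes held 17 sites in 6 of 29 genes (20.7%), and in 6 of the 15 with Pol II at an end in both conditions (40%). The integrin gene ITGAL held 6 sites, of 501 to 1509 bp in control and 501 to 3682 bp in knockdown. ITGAX held 3, of 1614, 789 and 501 bp, met by 954, 822 and 501 bp, and ITGB2, the shared beta chain, 2, of 968 and 1999 bp, met by 501 and 1461 bp. TLR2, a sensor of bacterial lipoproteins, held 4 sites, of 501, 674, 2706 and 902 bp, met by 501, 1102, 3573 and 3573 bp. The lysosomal protease genes CTSB and CTSS held 1 each. Of the 17, 4 were at least 2-fold wider and none 2-fold narrower in knockdown, beside 25.7% and 12.2% of all sites.

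Among genes of other lineages, lymphoid genes held 3 sites in 2 of 17 genes (11.8%), in CD4, which monocytes also express, and in EBF1, a B cell factor whose site measured 501 bp in both lists 96548 bp from H3K4me3. Erythroid and megakaryocyte genes held 2 sites in 2 of 15 genes (13.3%), LMO2 and ZFPM1. Neuronal, muscle and liver genes held no site in 25 genes, of which 2 had Pol II at an end in both conditions. Beside the 10.2% of all genes, the macrophage and monocyte list lay above and the neuronal, muscle and liver list below. The lymphoid and erythroid lists lay near that share. Of the 4 lymphoid genes with Pol II at an end in both conditions 2 held a site (50%), and of the 6 erythroid ones 1 (16.7%). These genes are too few to set the labelled lineage apart from other blood lineages or to show them alike.

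Actin, adhesion and focal contact genes held 34 sites in 11 of 29 genes (37.9%), and in 10 of the 25 with Pol II at an end in both conditions (40%). MYH9, the nonmuscle myosin heavy chain, held 9 sites of 501 to 2510 bp in control and 501 to 8968 bp in knockdown, and MYO1F, a myosin of immune cells, 8, of 501 to 3319 bp and 501 to 5793 bp. LCP1, the leukocyte actin bundler, held 2, of 1440 and 6105 bp, met by 889 and 3728 bp. ARHGAP26 held 4, of 1082 to 1642 bp, met by 501 to 1202 bp. ACTN1, ACTN4, TLN1 and RHOA held 2 each, and LASP1, AHNAK and SPTBN1 1 each. Over the 34 sites the median ratio was 1.25, beside 1.12 at all sites. Of the 34, 10 were at least 2-fold wider and 5 at least 2-fold narrower, beside 25.7% and 12.2% of all sites.

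Splicing factors and RNA-binding proteins, the class to which QKI5 belongs, held 24 sites in 6 of 30 genes (20%). The median ratio was 0.618, beside 1.12 at all sites. In knockdown 1 site was at least 2-fold wider and 9 at least 2-fold narrower, beside 25.7% and 12.2% of all sites. MBNL1 held 14 of the 24. CELF2, a splicing regulator, held 4, of 1891, 889, 2504 and 1329 bp, met by 2355, 690, 887 and 925 bp. HNRNPC held 3, of 1285, 501 and 5840 bp, met by 501, 758 and 2059 bp, and SF3B1, a core component of the U2 particle, 1, of 2503 bp, met by 632 bp. TRA2A held 1, of 850 and 501 bp, and HNRNPM 1, of 501 bp under a knockdown peak of 5447 bp. These counts belong to the contrast that chose the sites, and nothing is read from them.

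**Figure D4:**
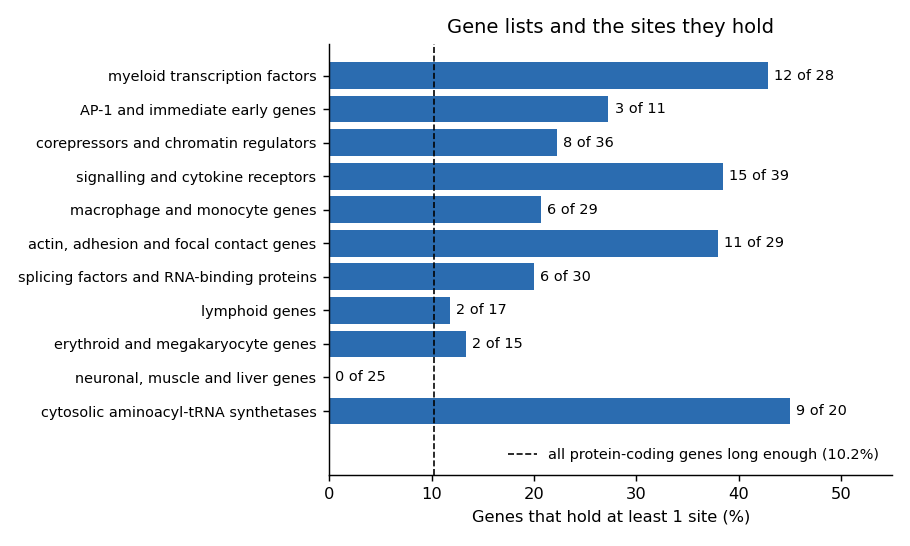
Share of listed genes long enough to hold a site that held at least 1 (x axis, %), for each gene list (y axis), with the number of genes beside each bar and the share of all protein-coding genes as a dashed line. The aminoacyl-tRNA synthetase list, added after values were seen, lies at 45% and the myeloid transcription factor list at 42.9%, beside 10.2% of all genes. The signalling and actin lists lie close, at 38.5% and 37.9%. The neuronal, muscle and liver list lies at 0, and 2 of its 25 genes had Pol II at an end in both conditions.

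The cytosolic aminoacyl-tRNA synthetases, enzymes that charge tRNAs with amino acids, were added as a list after YARS1 and IARS1 had been seen among the genes with most sites, so their count supports nothing by itself. All 20 had Pol II at an end in both conditions, and 9 held a site (45%), beside 14.3% of all such genes. They held 40 sites in all, with a median ratio of 1.00. Of the 40, 9 were at least 2-fold wider and 12 at least 2-fold narrower in knockdown, beside 25.7% and 12.2% of all sites, and nothing is read from these counts. The 10 sites of IARS1 ran from 5.43 to 58.2 kb from its 5′ end. WARS1 held 3 wide sites, of 6103, 6660 and 5428 bp in control, met by knockdown peaks of 1974, 8466 and 8466 bp. LARS1 held 6 sites, of which 4 measured 501 bp in control, and CARS1 held 6, of 501 to 2680 bp. NARS1 held 2, and EPRS1, FARSA and MARS1 1 each. The zinc finger genes whose symbols begin with ZNF, also counted after values were seen, held sites in 88 of 502 genes (17.5%), beside 10.2% of all genes long enough.

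Some sites lay next to the end of a gene that did not contain them. Such an end was within 1 kb of 238 sites (8.62%, 7.60 to 9.73%), and 121 sites overlapped one. Control-only peaks had one at 5.24%, a difference of 3.38 points (2.22 to 4.60), while shared peaks with H3K4me3 had one at 20.5% and shared intergenic peaks at 25.5%, classes set apart by the mark and the position that the rule used. Whole genes lay inside 29 sites, among them 14 pseudogenes, 7 microRNAs and 5 small nucleolar RNAs. Leaving out sites within 2 kb of an end of any gene left 2397 sites.

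QKI5 bound RNA near few sites. Of the 7300 control CLIP peaks, 112 lay within 1 kb of a site, and 74 sites (2.68%, 2.11 to 3.35%) had such a peak, 35 of them overlapping it. Control-only peaks had a CLIP peak within 1 kb at 2.41% (difference 0.271 points, -0.410 to 1.03), and shared peaks with H3K4me3 at 2.84% (difference -0.158 points, -1.02 to 0.705). Neither interval excludes 0. An overlapping CLIP peak was found at 1.27% of sites and 0.656% of control-only peaks, a difference of 0.612 points (0.186 to 1.13). The median width was 812 bp for the sites and 501 bp for control-only peaks. Among peaks of the minimum width, a CLIP peak overlapped 2 of 787 sites (0.254%) and 18 of 3773 control-only peaks (0.477%), a difference of -0.223 points (-0.555 to 0.467), and lay within 1 kb of 1.65% and 2.38%, a difference of -0.734 points (-1.60 to 0.501). Neither interval excludes 0, and both differences have the opposite sign. Shared intergenic peaks had a CLIP peak within 1 kb at 0.300%, a difference of 2.38 points (1.71 to 3.07). That class was chosen to touch no annotated gene and CLIP needs RNA, so this difference is a description.

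Of the 60 sites with a CLIP peak and a host of known strand, 57 had the CLIP peak on the host's strand, and at 68 of the 74 the peak carried the host's symbol. The knockdown list held 649 CLIP peaks and reached 7 sites, none of them among the 74. The authors' CLIP values gave the most reads, 21, at a peak overlapping the site in AHNAK, a giant scaffold protein gene, with a log2 enrichment of 3.03 (−log10 p 10.5). SPEN, a transcriptional repressor gene, had a CLIP peak of 20 reads 920 bp from its site. GAS6, a ligand of the TAM receptors, had one of 16 reads inside its site, with a log2 enrichment of 5.92 (−log10 p 15.7). ERV3-1, FOXK1 and SON had peaks of 17 reads, DCAF16 and CDCA5 of 14 and WDR1 of 13.

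Genes met above also had CLIP peaks at their sites. In RUNX1, a CLIP peak of 7 reads with a log2 enrichment of 6.73 lay inside the site of 7304 bp. In CELF2, one of 11 reads with a log2 enrichment of 7.38 lay 39 bp from the site of 2504 bp. ITGAL and AHRR each had a CLIP peak inside a site, of 8 and 9 reads.

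Host genes as a whole held control CLIP peaks more often. A control CLIP peak carried the symbol of 471 hosts (27.0%, 24.9 to 29.1%) and of 14.6% of other genes (14.0 to 15.1%), a difference of 12.4 points (10.3 to 14.6). Among genes with Pol II at an end in both conditions the shares were 29.0% and 19.98%, a difference of 9.05 points (6.64 to 11.5). The hosts exceeded the other genes in all 5 length classes, by 8.52 points below 20 kb (5.10 to 12.7) and by 16.4 points at 200 kb and over (8.23 to 24.8). CLIP needs RNA, and the level of each gene's RNA was not analysed here.

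**Figure D5:**
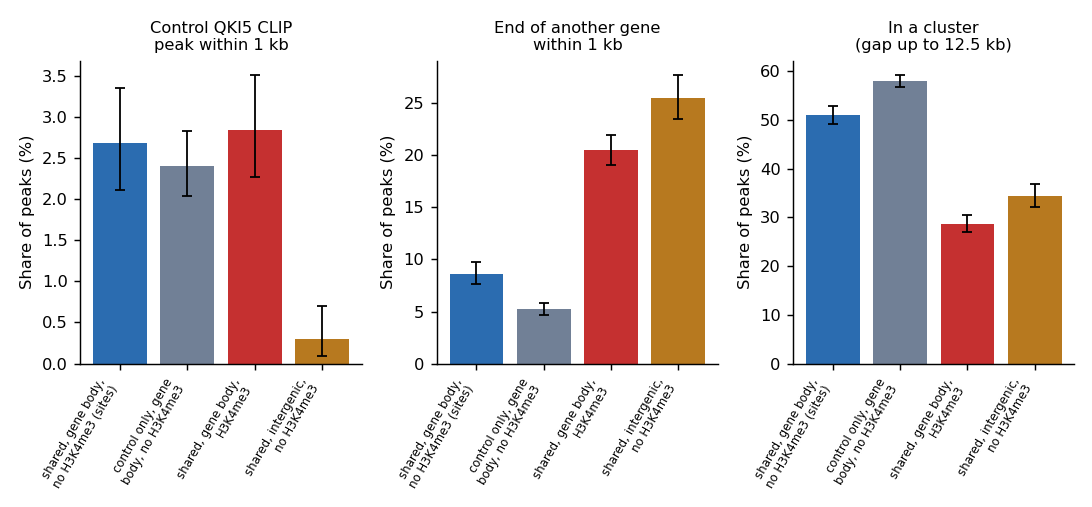
Share of peaks (y axis, %) with a control QKI5 CLIP peak within 1 kb, with the end of another gene within 1 kb, and in a cluster, for the sites and 3 other classes of control Pol II peaks; error bars are exact 95% binomial intervals for counting error. The CLIP share of the sites, 2.68%, lies beside 2.41% and 2.84% in the other gene-body classes and above 0.300% in intergenic peaks. Intergenic peaks were chosen to touch no gene, so that difference is a description.

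The sites were a median of 9899 bp from the nearest H3K4me3 peak (quartiles 4227 and 21138 bp), and 188 (6.81%) were more than 50 kb away. The most remote are given as a description, since distance from the mark chose the sites. A site of 501 bp in both lists in GRM8, a glutamate receptor gene, was 548017 bp from H3K4me3. SHANK2, a synaptic scaffold gene, held one 627 bp wide in control and 769 bp wide in knockdown, 333082 bp away, and LRFN5, a synaptic adhesion gene, one of 501 and 632 bp, 249019 bp away. TEK, the angiopoietin receptor, held one of 1046 and 501 bp, and CACNB2, a calcium channel subunit, one of 1597 and 753 bp. ADTRP, SEMA6D, MUSK, DPF3 and THSD7A followed, at 227657 to 189504 bp. All 10 had 1 knockdown peak that met the rule, and all but MUSK measured less than 2000 bp in control.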

How the data were processed

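Pol II and H3K4me3 ChIP and QKI5 CLIP peak lists of THP-1 cells, 1 per assay and condition, were used as deposited. Per the series' design text each list was made from both replicates. The authors' ChIP lists give a score of 1 in every row. The CLIP lists have no header, and the deposited columns were taken from their values as the −log10 p of a peak (at least 7.00), its log2 enrichment (at least 3.00) and its reads. HOMER and the build GRCh38.p5 are named per the submitters' processing notes, and which aligner, peak caller and settings were used is not given in the sources used here. Depth is unknown.

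Genes came from RefSeq (GRCh38.p14), used for names, containment and distances, which can differ slightly from the authors' build. Exons were not resolved. "Every gene containing" a site was read as genes of any type. A site was matched to the knockdown peak with the longest overlap. Strand was known for 15843 of 20037 protein-coding genes. Gene ends were the annotated outer ends, and a gene-end peak lay within 1 kb. Shares carry exact Clopper-Pearson 95% intervals and differences Newcombe intervals, for counting error only. No p-value was computed. Python 3.11.15, pandas 2.3.3, scipy 1.17.1 and statsmodels 0.14.6 were used, and the interval code was tested on simulated data.

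The members, gene lists and limits were chosen with earlier results of these data known. Named were the 10 genes with most sites, the 10 widest sites, the 5 largest and 5 smallest width ratios, the 10 sites with most CLIP reads, the 10 farthest from H3K4me3, the 5 largest clusters, the peaks beside each limit and list members that hold a site. A few genes that this rule names are not reported here. Genes at promoter windows and microRNAs were named for their position. MYO1F, RAB27A, KCNAB2 and the later lists were named after their values were seen. Alternatives changed each limit of the rule, the matching, the fold limit and the distances.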

Additional observations from a re-analysis of the deposited data

How the results depend on the processing

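No paired analysis was possible because each list pools both replicates, and for the same reason no replicate could be left out. Of 59 alternatives, 35 kept the result within the limit set for it and 24 did not. Requiring the overlap to cover at least 50% of both peaks left 1001 sites in 871 genes, a median width ratio of 1, 1 site at least 2-fold wider and 0 narrower (that overlap itself bounds the ratio near 2), a CLIP share of 2.1% and 14.5% of sites in clusters. Leaving out peaks of minimum width gave a ratio of 1.22, 438 wider, 160 narrower and 47.4% in clusters. With no H3K4me3 within 5 kb, 1962 sites were left, of which 468 were wider, and 86.2% of hosts had an H3K4me3 gene-end peak. A count of wider or narrower sites falls by itself where fewer sites remain. Further alternatives were added after seeing the data. The 1936 one-to-one sites gave a ratio of 1 and 227 wider, and the 2765 sites chosen from the knockdown list gave 0.944, 328 wider and 747 narrower. A 1.5-fold limit gave 579 narrower. CLIP peaks overlapping or within 5 kb gave 1.27% and 8.08%, H3K4me3 within 5 kb of a gene end 91.5%, and joining sites at 5 or 25 kb 40.1% and 57.6% in clusters. Apart from the bound named, the causes were not tested. Unknown depth limits every width and every absence of a peak.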
